A study of Homo sapiens with 8 samples.

Results

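The aldo-keto reductases of subfamilies AKR1A, AKR1B and AKR1C were followed through an RNA-seq experiment on decitabine (DAC) resistance. The 7 members, AKR1C1, AKR1C2, AKR1C3, AKR1C4, AKR1B1, AKR1B10 and AKR1A1, were the rows of the deposited gene table that carry these symbols, out of 60664 genes. They were chosen because AKR1C2 was among the largest rises in DAC-resistant cells in DMSO, so the DMSO levels of resistant against parental cells are given as a description with no test. The cells were THP-1, a human acute monocytic leukemia line, either parental or made resistant by the authors through repeated cycles of DAC followed by culture without the drug. Each was given the vehicle DMSO or 1 µM DAC for 6 days, with 2 libraries labelled as biological replicates in each of the 4 groups (parental DMSO, parental DAC, resistant DMSO and resistant DAC). All groups carry the same wild-type label, the resistant cells are 1 derived line, and p-values describe only the spread between these cultures. DAC is a cytidine analog that, once built into DNA, traps DNA methyltransferases and leaves the DNA hypomethylated.

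Aldo-keto reductases use NADPH to reduce aldehydes and ketones to alcohols. The AKR1C enzymes act on steroids, prostaglandins and carbonyl-bearing drugs, are encoded side by side, and several are textbook targets of the oxidant-responsive factor NRF2. AKR1B1 is aldose reductase, which opens the polyol pathway by turning glucose into sorbitol, AKR1B10 is its relative best known from intestine and certain tumours, and AKR1A1 is the broadly expressed aldehyde reductase.

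In GENCODE v44 on hg38 the AKR1C genes lie in 1 cluster, AKR1C1 at chr10:4963253-4983283 on the plus strand, AKR1C2 at chr10:4987775-5018031 on the minus strand, AKR1C3 at chr10:5035354-5107686 on the plus strand and AKR1C4 at chr10:5195462-5218949 on the plus strand. AKR1B1 lies at chr7:134442356-134459284 on the minus strand, AKR1B10 at chr7:134527567-134541412 on the plus strand and AKR1A1 at chr1:45550543-45570049 on the plus strand. The 250 bases upstream of the start site, from RefSeq on GRCh38.p14, could be matched for 6 of the 7 members, all but AKR1B10. They are shown for 3 AKR1C genes, whose levels parted widely, and for AKR1B1, which differed in the other direction, with each CpG (the site of DNA methylation) in capitals. AKR1C1 is given at chr10:4963165-4963414 on the plus strand, AKR1C2 at chr10:5003858-5004107 on the minus strand, AKR1C3 at chr10:5094164-5094413 on the plus strand and AKR1B1 at chr7:134459101-134459350 on the minus strand. The windows shown lie upstream of the start of the main (MANE) transcript. Those of AKR1C2 and AKR1C3 fall inside the gene spans given above, and which start sites these cells used was not measured.
AKR1C1: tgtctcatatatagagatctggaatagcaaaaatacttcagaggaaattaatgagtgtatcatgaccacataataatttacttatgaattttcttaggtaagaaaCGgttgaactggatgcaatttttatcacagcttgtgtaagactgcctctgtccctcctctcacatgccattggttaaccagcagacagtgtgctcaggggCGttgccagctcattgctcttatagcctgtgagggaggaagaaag
AKR1C2: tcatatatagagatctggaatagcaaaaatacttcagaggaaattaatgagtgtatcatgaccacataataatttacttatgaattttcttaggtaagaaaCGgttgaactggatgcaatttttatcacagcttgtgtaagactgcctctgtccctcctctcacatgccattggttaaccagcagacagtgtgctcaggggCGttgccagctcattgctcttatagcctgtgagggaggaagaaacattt
AKR1C3: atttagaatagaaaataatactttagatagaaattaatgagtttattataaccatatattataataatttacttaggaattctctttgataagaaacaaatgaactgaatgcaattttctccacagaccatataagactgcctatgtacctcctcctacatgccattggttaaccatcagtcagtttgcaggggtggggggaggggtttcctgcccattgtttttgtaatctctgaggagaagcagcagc
AKR1B1: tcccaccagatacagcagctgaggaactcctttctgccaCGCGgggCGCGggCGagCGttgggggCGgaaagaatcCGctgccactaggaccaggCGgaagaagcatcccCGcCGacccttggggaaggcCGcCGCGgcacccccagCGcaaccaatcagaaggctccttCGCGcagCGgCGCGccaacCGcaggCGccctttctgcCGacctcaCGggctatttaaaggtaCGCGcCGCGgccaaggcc
The AKR1C1 and AKR1C2 windows were nearly the same sequence, with 245 identical bases of 246 aligned (99.6%), whereas the other pairs of AKR1C windows were 78.2% to 81.1% identical. The AKR1C windows are poor in CpG, with 2 in AKR1C1, 2 in AKR1C2, 1 in AKR1C4 and 0 in both windows of AKR1C3, against a median of 11 (quartiles 3 and 23) over 27305 windows of the same length. The AKR1B1 window shown held 28 CpGs, a second AKR1B1 window held 12 and that of AKR1A1 held 17. The letters CCAAT, searched on both strands and found in 33% of all windows, were present as ATTGG at position -77 of AKR1C1, -81 of AKR1C2 and -86 of the AKR1C3 window shown, counted from the start site, and as CCAAT at position -98 of the AKR1B1 window shown. The letters TGACNNNGC, the core of the antioxidant response element through which NRF2 acts, were searched on both strands, were found in 11% of all windows and were in none of the members' windows. These matches describe the letters in 250 bases and nothing further.

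AKR1C2, which inactivates dihydrotestosterone and binds bile acids, was scarce in parental cells and abundant in resistant cells. Its level in FPKM (fragments scaled to gene length and library size) was 0.586 and 0.628 in the parental DMSO libraries, 1.35 and 1.71 in parental DAC, 74.9 and 74.4 in resistant DMSO, and 66.1 and 63.8 in resistant DAC. Both resistant groups were far above both parental groups, and no groups overlapped. Here and below, groups of 2 libraries that do not overlap are a description, and the share of all genes that separate so was not counted. In DMSO the mean was 0.607 ± 0.0298 (SD, n = 2) in parental and 74.7 ± 0.389 in resistant cells, a ratio of 123. By level it stood at place 14991 of 27437 and 14666 of 27326 genes detected in the parental DMSO libraries, and at place 428 of 26264 and 425 of 26069 in resistant DMSO. The reads behind these values, recovered from the FPKM, were 120 and 123 in parental DMSO and 15281 and 14446 in resistant DMSO. On the log2(FPKM + 1) scale the difference was 5.56, the 3rd highest of 14899 genes, after CXCL11 at 6.42 and NFE4 at 6.02 and before OTP at 5.30.

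AKR1C3 makes testosterone from androstenedione and prostaglandin F compounds from prostaglandin D compounds, and reduces anthracyclines. Its level was 1.28 and 1.46 FPKM in parental DMSO, 6.60 and 7.42 in parental DAC, 34.6 and 32.7 in resistant DMSO, and 31.8 and 30.3 in resistant DAC. The 4 groups did not overlap, and parental cells under DAC stood between parental DMSO and both resistant groups. The DMSO ratio of resistant to parental was 24.6, and its difference of 3.87 on the log2 scale was the 17th highest of all genes tested.

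AKR1C1 inactivates progesterone. It was measured at 0.417 and 0.463 FPKM in parental DMSO, 0.934 and 0.789 in parental DAC, 2.13 and 2.05 in resistant DMSO, and 1.73 and 2.07 in resistant DAC. The 2 resistant groups overlapped each other and lay above both parental groups, and the DMSO ratio was 4.74. The windows upstream of the main transcript starts of AKR1C1 and AKR1C2 were 99.6% identical, and the DMSO ratios were 4.74 and 123. Which start sites were in use was not measured.

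AKR1C4, the liver form that takes part in bile acid synthesis, stayed between 0.019 and 0.171 FPKM in the 8 libraries, which corresponds to 1 to 9 reads, and its groups overlapped. AKR1B10 was listed at 0 in each of the 8 libraries. With 0 reads, up to 3 reads are allowed, or 0.053 to 0.0616 FPKM by library, so any AKR1B10 transcript was under that limit (counting error only). Neither gene reached 1 FPKM in 2 libraries, so 5 of the 7 members entered the tests, and AKR1C1 entered only through the resistant libraries.

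**Figure D1:**
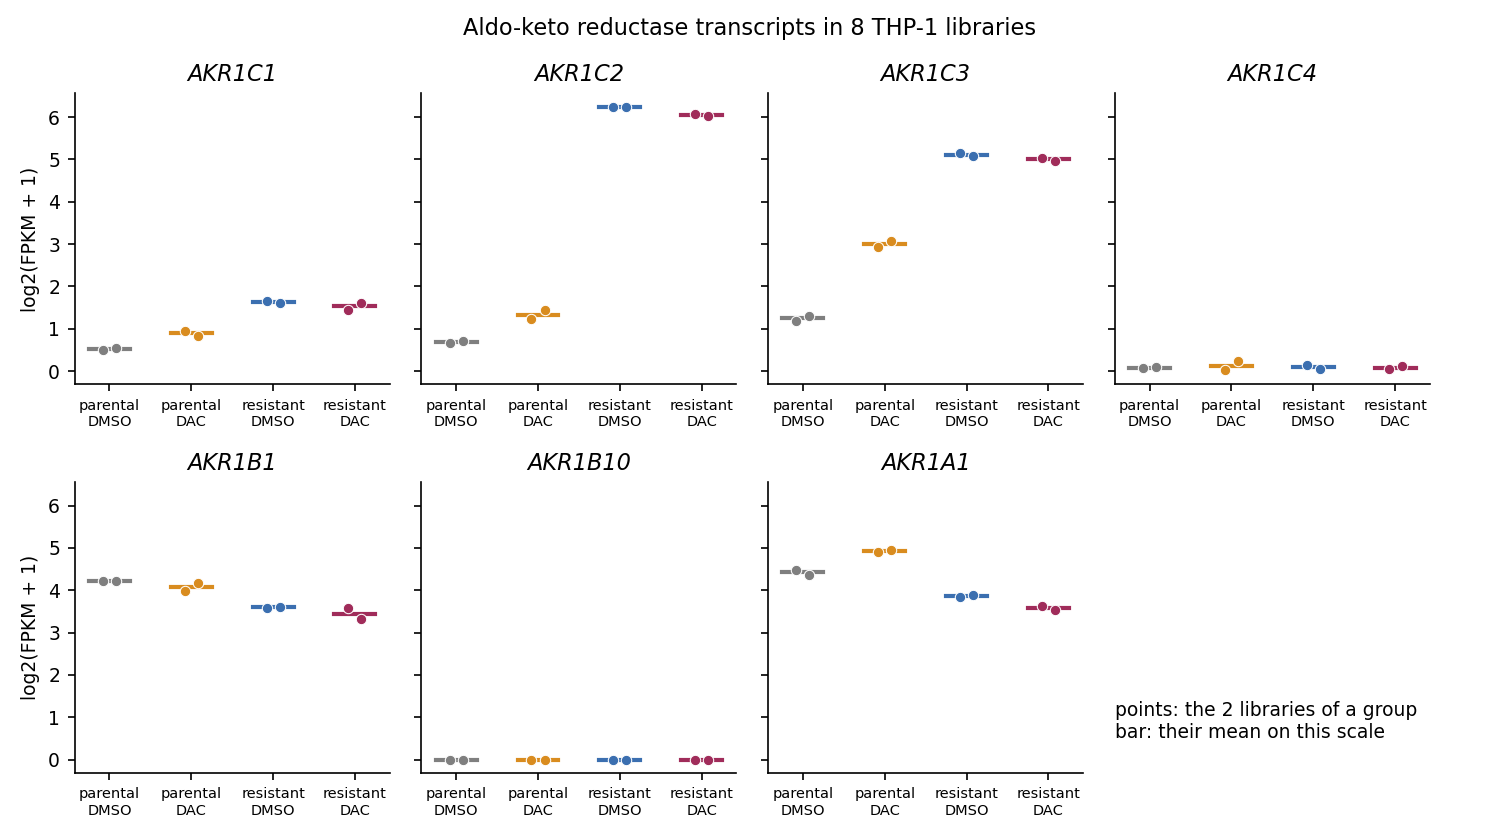
Level of each member as log2(FPKM + 1) (vertical axis) in the 4 groups (horizontal axis), with a point for each of the 2 libraries and a bar at their mean. AKR1C2 and AKR1C3 sit far higher in both resistant groups, AKR1B1 and AKR1A1 sit lower there, and AKR1C4 and AKR1B10 sit at or near 0.

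AKR1B1 and AKR1A1 were at lower levels in resistant cells. AKR1B1 was at 17.5 and 17.7 FPKM in parental DMSO, 14.9 and 17.0 in parental DAC, 11.02 and 11.13 in resistant DMSO, and 10.9 and 9.06 in resistant DAC. Both resistant groups were below both parental groups, and the DMSO ratio of resistant to parental was 0.628. AKR1A1 was at 21.3 and 19.7 FPKM in parental DMSO, 28.8 and 30.0 in parental DAC, 13.3 and 13.7 in resistant DMSO, and 11.3 and 10.6 in resistant DAC. Its 4 groups did not overlap, parental DAC was the highest and resistant DAC the lowest, and the DMSO ratio was 0.659.

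The make-up of the family therefore differed between the lines. In parental DMSO the AKR1C genes summed to 2.33 and 2.62 FPKM, or 5.67% and 6.54% of the 7-gene sum, and AKR1A1 and AKR1B1 made up the rest. In parental DAC the AKR1C share was 16.9% and 17.7%, in resistant DMSO it was 82.2% and 81.4%, and in resistant DAC it was 81.8% and 83.0%. Within the AKR1C genes the leading one differed by cell line. AKR1C3 held 54.9% and 55.7% of the AKR1C sum in parental DMSO and 74.2% and 73.6% in parental DAC, whereas AKR1C2 held 66.3% to 68.1% in the 4 resistant libraries. The ratio of AKR1C2 to AKR1C1 was 1.36 to 2.16 in the parental libraries and 30.9 to 38.2 in the resistant ones, so these neighbours, at like levels in parental cells, parted in resistant cells.

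**Figure D2:**
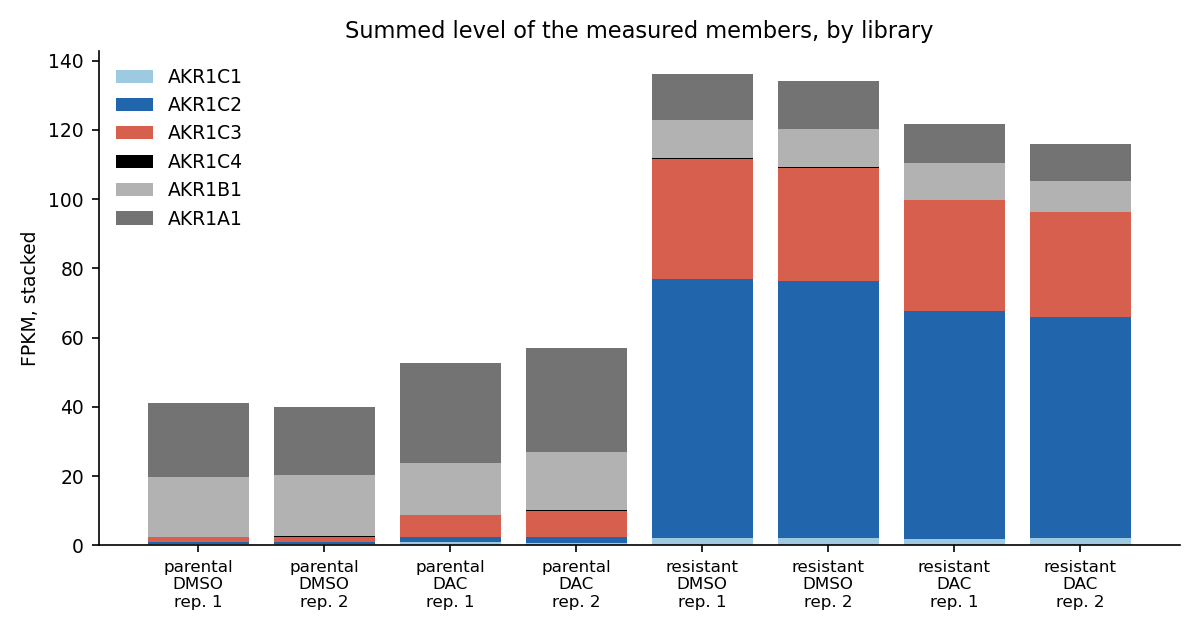
FPKM of the members stacked within each of the 8 libraries (AKR1B10, at 0, is not visible), with the linear axis starting at 0. The AKR1C part is 5.67% to 17.7% of the stack in the parental libraries and 81.4% to 83.0% in the resistant ones, where AKR1C2 is the largest piece.

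FPKM divides by gene length, and the comparison between genes depends on the length used. The merged exons of AKR1C1 span 8765 bases, against 6543 in its main (MANE) transcript, and for AKR1C3 the numbers are 3911 and 1186. For AKR1C2 the length behind the deposited values is 6461 bases and the main transcript has 3215. With main transcript lengths, a choice added after seeing the data, the ratio of AKR1C2 to AKR1C3 in the resistant libraries was 1.26 to 1.39, against 2.07 to 2.27 with the deposited values, and AKR1C2 held 55.3% to 57.5% of the AKR1C sum there. The ratio of AKR1C2 to AKR1C1 was then 2.04 to 3.25 in the parental and 46.3 to 57.3 in the resistant libraries. AKR1C3 still led in the parental and AKR1C2 in the resistant libraries, and the AKR1C share of the family was 6.02% to 20.7% and 81.2% to 82.9%. The AKR1C genes also share sequence. Of all 100-base windows of the main AKR1C2 transcript 25.6% occur unchanged in AKR1C1, and 12.4% of the AKR1C1 windows occur in AKR1C2, while the AKR1A1 and AKR1B1 transcripts share none with other genes. How the authors counted reads that fit several genes is not given in the sources used here. In the first resistant DMSO library 2.13 FPKM of AKR1C1 stood beside 74.9 FPKM of AKR1C2, and the part of shared reads in the AKR1C1 level was not tested.

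Resistant and parental cells were next compared under DAC, in the 4 libraries that did not serve to choose the members, although they come from the same 2 cell lines. A call required both p no higher than 0.01 from limma, before adjustment, and means at least 1 apart on the log2 scale. Under DAC, AKR1C2 rose 42.6-fold in resistant over parental cells, from 1.53 ± 0.255 to 64.9 ± 1.6 FPKM (SD, n = 2). Its log2 difference of 4.71 (SE 0.07, limma adjusted p = 8.3e-08) was the highest of 14899 genes. AKR1C3 rose 4.43-fold, from 7.01 ± 0.581 to 31.1 ± 1.07 FPKM, with a log2 difference of 2.00 (SE 0.07, limma adjusted p = 1.1e-06). AKR1A1 fell, with 29.4 ± 0.826 FPKM in parental and 10.9 ± 0.492 in resistant cells, a ratio of 0.372 and a log2 difference of -1.35 (SE 0.05, limma adjusted p = 1.9e-06). AKR1B1 differed by -0.63 (95% CI -0.84 to -0.41, limma adjusted p = 0.00082), short of the size needed for a call. The AKR1C1 difference was 0.64, likewise short of that size, and is given as a description, since the gene entered the tests only through the resistant libraries. The members called were thus 2 higher and 1 lower of 5 tested, where 14.5% of all genes were called, 5.29% higher and 9.17% lower. With a pseudocount of 0.1, with TPM or with limma-voom on recovered reads the AKR1C1 difference was 1.03 to 1.13, past the size for a call, with the same limit from its entry.

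**Figure D3:**
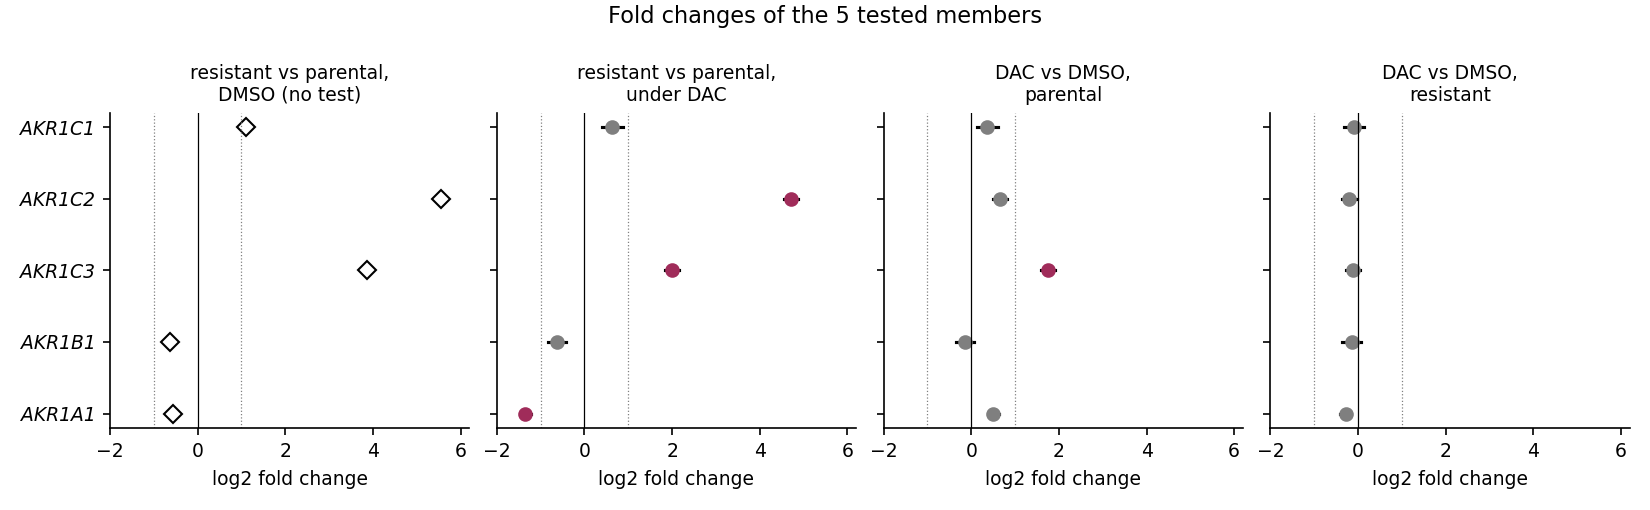
Log2 fold change on log2(FPKM + 1) (horizontal axis) of the 5 tested members in 4 comparisons, with 95% confidence intervals as lines. Open diamonds mark the DMSO comparison that chose the members, which has no test, red points were called, grey points were not, and dotted lines mark a log2 change of 1. AKR1C2 lies at 5.56 and 4.71 in the first 2 panels and at 0.65 and -0.20 in the last 2.

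In parental cells the question was whether the drug itself moves these genes. AKR1C3 rose 5.12-fold with DAC, from 1.37 ± 0.125 to 7.01 ± 0.581 FPKM (SD, n = 2), a log2 change of 1.76 (SE 0.07, limma adjusted p = 3.1e-06). It was the 1 member called of 5 tested, where 9.31% of all genes were called, 6.66% higher and 2.64% lower. AKR1C2 went from 0.607 to 1.53 FPKM, 2.52-fold, and its log2 change of 0.65 was under the size for a call on a scale that understates changes of low genes. With a pseudocount of 0.1 the AKR1C2 value was 1.19, past that size. Both values are a description, since the parental DMSO libraries they rest on also served to choose AKR1C2. The value for AKR1A1 was 0.50 (SE 0.05, limma adjusted p = 0.00025), too small for a call. AKR1C1 gave 0.37 (0.13 with quantile scaling and 0.96 with limma-voom), a description because it entered the tests only through the resistant libraries. AKR1B1 gave -0.14 (95% CI -0.36 to 0.07, limma adjusted p = 0.21). After 6 days of DAC, parental AKR1C2 was at 1.53 FPKM and resistant AKR1C2 without the drug was at 74.7 FPKM, and the same pair of means for AKR1C3 was 7.01 and 33.7.

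In resistant cells no member of 5 tested was called with limma, where 0.235% of all genes were called, 0.114% higher and 0.121% lower. Unadjusted p was under 0.05 for 2 members, and limma-voom on the recovered reads called 0. AKR1C2 gave -0.20, a description because the resistant DMSO libraries chose it. AKR1C3 gave -0.11 (95% CI -0.27 to 0.05, limma adjusted p = 0.35) and AKR1A1 gave -0.28 (95% CI -0.40 to -0.16, limma adjusted p = 0.021). The intervals for AKR1B1 (-0.36 to 0.07) and AKR1C1 (-0.32 to 0.14) took in 0.

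The DAC effect was then compared between the cell lines as an interaction, resistant minus parental. AKR1C3 was called, with a difference of -1.87 (SE 0.09, limma adjusted p = 1.8e-05), where 10.6% of all genes were called and 7.16% were lower. For AKR1A1 the difference was -0.78 (SE 0.07, limma adjusted p = 0.00024), under the size for a call. For AKR1C2 it was -0.85, likewise under that size and given as a description, since the DMSO libraries chose this gene. The AKR1C2 difference was -1.40 with a pseudocount of 0.1, -1.16 with TPM and -1.52 with limma-voom, past the size for a call. AKR1C1 gave -0.46, and -1.11 with limma-voom, given as a description because the gene entered the tests only through the resistant libraries. AKR1B1 gave 0.00 (95% CI -0.30 to 0.30). The effect of DAC in each line and this difference use the DMSO libraries that chose AKR1C2. A gene chosen for low parental and high resistant DMSO values is tilted toward a rise with DAC in parental cells, toward a fall with DAC in resistant cells and toward a negative difference.

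AKR7A2, an aflatoxin aldehyde reductase, had group means of 18.1 to 23.3 FPKM. AKR1E2, whose gene lies beside the AKR1C cluster, was at 0.522 and 0.655 FPKM in parental DMSO, 1.58 and 2.23 in parental DAC, 1.13 and 0.867 in resistant DMSO, and 0.856 and 0.824 in resistant DAC. Its log2 change with DAC in parental cells was 0.86, under the size for a call. Outside parental DAC, only the first resistant DMSO library reached 1 FPKM. AKR1E2 thus entered the tests through the group where it was high, so its values are a description. Group means of AKR1D1, AKR1B15, AKR1C8P, AKR7A3 and AKR7L were between 0 and 0.749 FPKM. Of the 3 family genes tested, with the potassium channel subunit KCNAB2 as the third, limma called 0 in each of the 4 tested comparisons. Unadjusted p was under 0.05 for 3 of them with DAC in parental cells, 1 with DAC in resistant cells, 2 for the difference between the DAC effects and 2 between the lines under DAC. Limma-voom called 1, 0, 1 and 1 in the same order, a pseudocount of 0.1 gave the same counts, and TPM gave 1, 0, 1 and 0. Any count over these 3 genes that holds AKR1E2, here or with a library left out, is a description. Without the first parental DAC library 1 was called with DAC in parental cells, and for the difference 1 was called without that library, the second parental DMSO library or the second resistant DMSO library.

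Of 60 further genes within 1 Mb of the AKR1C cluster 15 were tested, and the median over these was 0.17 for DAC in parental cells (0.06 over all genes) and -0.04 for resistant against parental cells under DAC (-0.03 over all genes). Under DAC 1 was called higher and 2 lower in resistant cells, where 14.5% of all genes were called. The higher one, ENSG00000224251, is a lncRNA at chr10:4995488-4997380 on the plus strand, within the AKR1C2 gene and opposite to it. It was at 0.226 and 0.151 FPKM in parental DAC and 4.42 and 3.46 in resistant DAC. It reached 1 FPKM only in resistant libraries, and in GENCODE v44 its exons share no base with those of AKR1C2. That annotation gives AKR1C2 6086 exon bases, whereas the length behind the deposited values is 6461 bases. The handling of strand is not given in the sources used here, and the part of AKR1C2 reads in the level of this lncRNA was not tested. The lower ones were PFKFB3, a regulator of glycolysis, with a log2 difference of -1.23, and the lncRNA ENSG00000205488 with -1.66, which reached 1 FPKM only in parental DAC. Both lncRNAs thus entered the tests through the group where they were high, so their values are a description. PFKFB3 was at 15.1 and 14.4 FPKM in parental DAC and 6.08 and 5.38 in resistant DAC. Near AKR1B1 and AKR1B10, 9 of 27 further genes were tested and limma called 0 in that comparison, with an unadjusted p under 0.05 for 5 and with 1 called by limma-voom. With DAC in parental cells 1 was called near each cluster (9.31% of all genes), ENSG00000205488 near AKR1C and STRA8 (2.135) near AKR1B1. These 2 were also called for the difference between the DAC effects (10.6% of all genes). With DAC in resistant cells (0.235% of all genes) the snoRNA ENSG00000239142 near AKR1C was called. It reached 1 FPKM only in DAC libraries, so its value is a description.

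**Figure D4:**
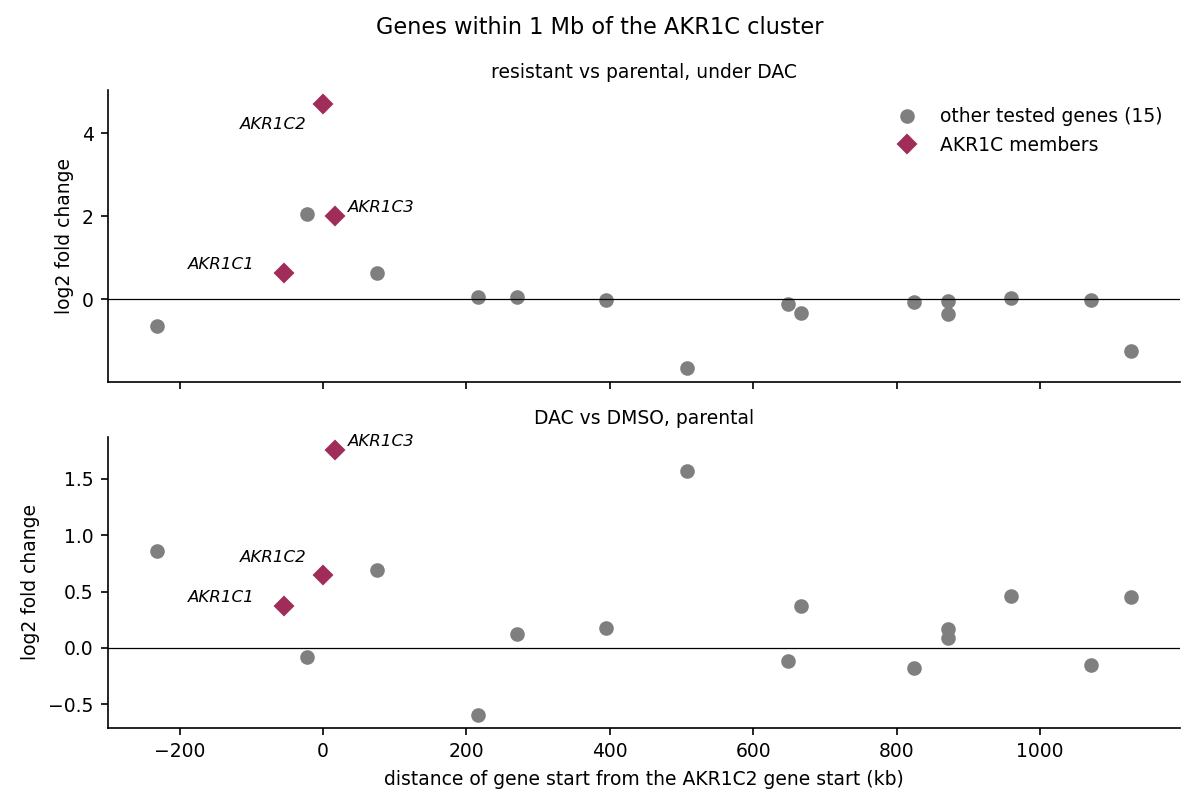
Log2 fold change (vertical axis) against the distance of each gene start from the AKR1C2 gene start in kb (horizontal axis) for tested genes within 1 Mb of the AKR1C cluster, with AKR1C members as diamonds. In the upper panel AKR1C2 at 4.71 stands above all others, followed by the lncRNA inside the AKR1C2 gene at 2.05 and AKR1C3 at 2.00, and in the lower panel AKR1C3 at 1.76 is the highest.

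Genes of the pathways in which these enzymes work were counted from lists chosen by function, 141 genes of which 100 were tested. With DAC in parental cells 8 rose and 4 fell, between resistant and parental cells under DAC 6 were higher and 10 lower, and with DAC in resistant cells 0 were called (39 of them had an unadjusted p under 0.05, and limma-voom called 0). The same rule called 9.31% of all genes with DAC in parental cells, 6.66% higher and 2.64% lower, and 14.5% between the lines under DAC, 5.29% higher and 9.17% lower, and the counts of each list stand beside these shares. Among the called genes named next, CBR1, CRABP2, PTGDR2, PTGDS and STS reached 1 FPKM only in parental DAC. HMOX1, CYP26B1 and HSD17B8 did so only in parental cells, and PTGFR and ALDH1A1 only in resistant cells. CBR3 did so in all resistant libraries but, among the parental ones, in only the first parental DAC library. All of these genes entered the tests through the group where they were high, so their values are a description. The list counts that hold them support nothing.

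Of 24 tested targets of NRF2, 3 rose and 1 fell with DAC in parental cells, and under DAC 2 were higher and 3 lower in resistant than in parental cells. The list medians were 0.27 and -0.20, against 0.06 and -0.03 for all genes. Between the lines in DMSO, given without a test, the list median had the other sign. It was 0.20, against 0.02 for all genes, with 16 of 24 higher in resistant cells, whereas 9 of 24 were higher under DAC. HMOX1, heme oxygenase, was at 1.64 and 1.44 FPKM in parental DMSO, 20.6 and 20.3 in parental DAC, 0.907 and 0.981 in resistant DMSO, and 0.734 and 0.382 in resistant DAC. Its log2 change with DAC in parental cells was 3.08, and its difference in resistant cells under DAC was -3.79. FTH1, the ferritin heavy chain, rose by 1.80 with DAC in parental cells and was lower by -1.57 in resistant cells under DAC. SLC7A11, the cystine transporter, fell by 1.06 with DAC in parental cells and was higher by 2.04 in resistant cells under DAC. The carbonyl reductases CBR1 and CBR3 are also on this list and are described with their own family. BLVRB, a biliverdin reductase named because it passed the p and size of a call in DMSO, was at 13.7 and 14.1 FPKM in parental DMSO and 5.64 and 5.67 in resistant DMSO. CBR3 passed both in the other direction, and 1300 of all 14899 genes passed both there. Such passes in DMSO served only to pick names and are not a result. Of the 6 tested NRF2 regulators limma called 0 in each of the 4 comparisons, and limma-voom also called 0. Unadjusted p was under 0.05 for 5 of them with DAC in parental cells, 3 with DAC in resistant cells, 4 for the difference between the DAC effects and 4 between the lines under DAC. NFE2L2 (NRF2 itself) gave -0.44 and its inhibitor KEAP1 gave -0.60 between resistant and parental cells under DAC.

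Prostaglandin genes bear on AKR1C3 as a prostaglandin F synthase. Of 13 tested, 2 were called higher with DAC in parental cells, and under DAC 1 was higher and 3 lower in resistant cells. The list median between the lines was -0.26 under DAC and, without a test, 0.53 in DMSO, against -0.03 and 0.02 for all genes. PTGFR, the prostaglandin F receptor, was at 0.151 and 0.202 FPKM in parental DAC and 1.44 and 1.61 in resistant DAC, a log2 difference of 1.10. PTGS1, the cyclooxygenase that starts the pathway, was at 19.6 and 20.2 FPKM in parental DAC and 1.67 and 1.41 in resistant DAC, a log2 difference of -3.04 (SE 0.08, limma adjusted p = 3.8e-07). PTGDS, which makes the prostaglandin D that AKR1C3 reduces, was at 0.0116 and 0.0973 FPKM in parental DMSO, 3.89 and 3.93 in parental DAC, and 0.356 to 0.724 in the resistant libraries. Its log2 change with DAC in parental cells was 2.22, and that of PTGDR2, a prostaglandin D receptor, was 1.57. TBXAS1, thromboxane synthase, was at 2.61 and 2.27 FPKM in parental DMSO, 5.01 and 5.79 in parental DAC, 4.04 and 4.32 in resistant DMSO, and 3.35 and 3.29 in resistant DAC. Its DAC effect differed between the lines by -1.15 (limma adjusted p = 0.00035).

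Among 12 tested genes of steroid metabolism, 1 was called higher and 1 lower with DAC in parental cells. Between the lines under DAC limma called 0 (median 0.15), with an unadjusted p under 0.05 for 9 and with 5 called by limma-voom. STS, which frees steroids from sulfate, was at 0.383 and 0.275 FPKM in parental DMSO and 1.81 and 1.68 in parental DAC, a log2 change of 1.05 that went to 0.99 and lost its call without the second parental DMSO library. HSD17B12, which acts in fatty acid elongation, fell with DAC in parental cells, from 27.2 and 27.7 to 12.9 and 13.0 FPKM. HSD17B8, named in the same way from DMSO, was at 1.36 and 1.42 FPKM in parental DMSO and 0.0547 and 0.345 in resistant DMSO. Among 12 tested short-chain carbonyl reductases, which share substrates with the aldo-keto reductases, 1 was higher and 2 lower in resistant cells under DAC. CBR1 was at 2.23 and 1.71 FPKM in parental DAC and listed at 0 in both resistant DAC libraries. CBR3 was at 1.06 and 0.839 FPKM in parental DAC and 3.20 and 2.94 in resistant DAC. The log2 difference of 1.07 is a description, since CBR3 entered the tests through the resistant libraries. Its call was lost without the first parental DAC library (1.15), the second (0.98) or the first resistant DAC library (1.02). HSD11B1, which activates cortisone, was at 16.5 and 13.2 FPKM in parental DAC and 1.87 and 1.19 in resistant DAC. Its log2 difference was -2.655 (SE 0.15, limma adjusted p = 9.7e-06). HSD11B1 acts on a steroid but was counted with the carbonyl reductases, so the 0 given for steroid metabolism between the lines leaves it out.

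Of 11 tested retinoid genes 1 was higher and 2 lower in resistant cells under DAC. ALDH1A1, which oxidizes the retinaldehyde that AKR1B10 and AKR1C3 can reduce, was at 0.295 and 0.333 FPKM in parental DAC and 2.17 and 1.92 in resistant DAC. CYP26B1, which breaks down retinoic acid, was at 1.79 and 1.75 FPKM in parental DAC and 0 and 0.00675 in resistant DAC. CRABP2, a retinoic acid carrier, was at 2.02 and 2.05 FPKM in parental DAC and 0.319 and 0.181 in resistant DAC. The related carrier CRABP1 fell with DAC in parental cells, from 21.4 and 23.6 to 8.42 and 9.49 FPKM, and was at 14.2 and 17.3 in resistant DAC.

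In the polyol and fructose list, which follows the AKR1B1 step, 1 of 10 was higher and 1 lower in resistant cells under DAC. SORD, the enzyme after AKR1B1, gave -0.08 with DAC in parental cells and 0.09 between the lines under DAC. SLC2A1, the glucose transporter, rose with DAC in parental cells from 10.2 and 10.8 to 25.6 and 25.7 FPKM and was at 11.9 and 10.8 in resistant DAC. HK1, a hexokinase, rose with DAC in parental cells from 8.19 and 7.93 to 18.9 and 20.8 FPKM. HK2, also named from DMSO, was at 3.65 and 3.61 FPKM in parental DMSO and 9.54 and 9.67 in resistant DMSO. ALDOC, an aldolase, was higher in resistant cells under DAC, with 6.84 and 6.49 FPKM in parental and 16.1 and 13.2 in resistant DAC. Its log2 difference was 1.02, and the call was lost without the second parental DAC library (0.99) or the first resistant DAC library (0.89). Of 12 tested aldehyde dehydrogenases, which oxidize the aldehydes that aldo-keto reductases reduce, 2 were called higher in resistant cells under DAC. These were ALDH1A1 and the mitochondrial folate enzyme ALDH1L2, which fell with DAC in parental cells from 35.9 and 34.5 to 4.80 and 5.52 FPKM and was at 24.9 and 25.1 in resistant DAC.

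**Figure D5:**
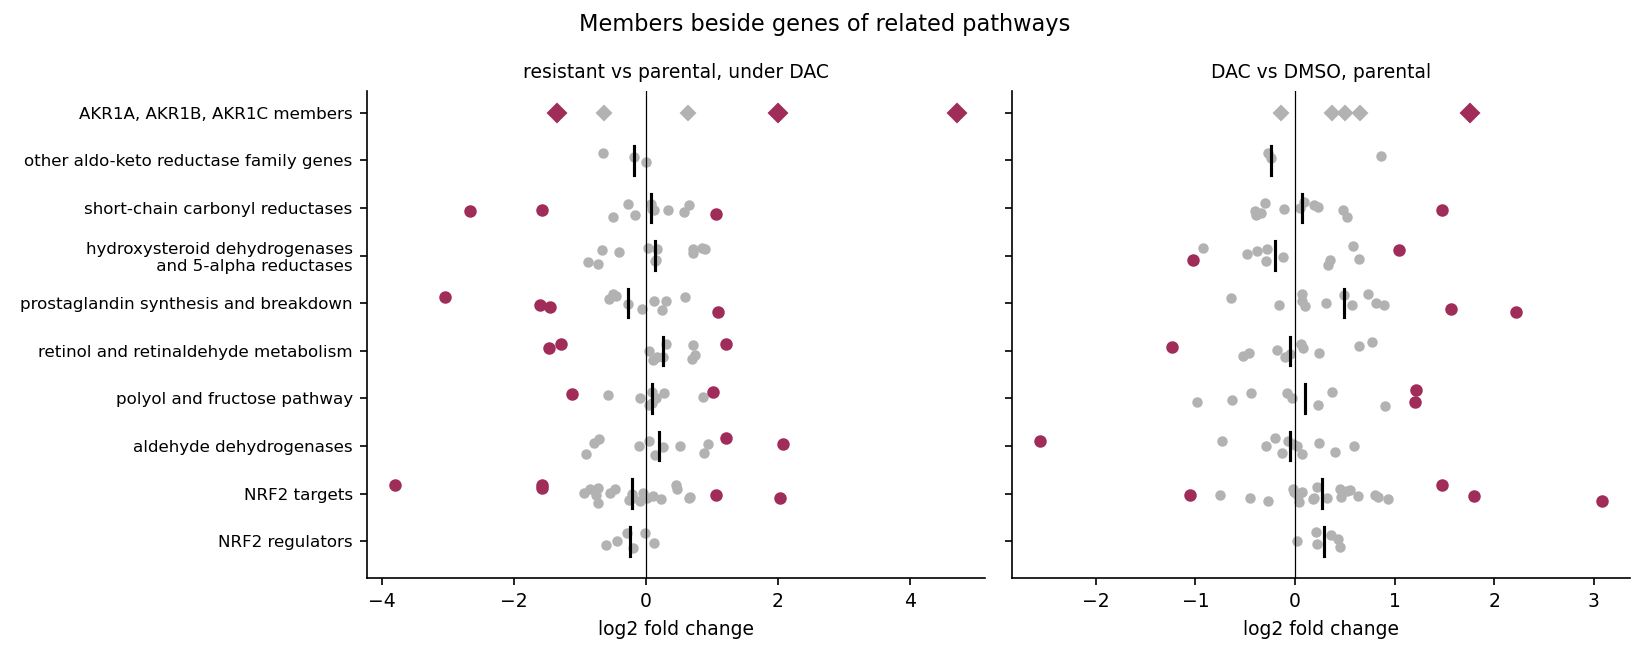
Log2 fold change (horizontal axis) of each tested gene in 9 functional lists, with the members as diamonds in the top row, red where called, grey where not, and a black bar at the list median. AKR1C2 at 4.71 in the left panel lies beyond every listed gene, and the list medians lie between -0.26 and 0.27 there.

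The genes whose pattern was most like that of a member were taken by Pearson's r of log2(FPKM + 1) over the 8 libraries, which fall into 4 groups, among genes with group means at least 1 apart on the log2 scale. For AKR1C2 the nearest was AGO1, an argonaute protein of microRNA silencing, with r = 0.999, at 4.24 FPKM in parental DMSO and 16.6 in resistant DMSO. ZNF506, LAMP2 and CYB5R1 were also among its nearest 6, with ENSG00000132204 and LINC02475, and 98 of 3606 genes had r of at least 0.99. For AKR1C3 the nearest included NPFFR2, SYNPO, IRX5, OTP and ENSG00000224817, with r of 0.997 to 0.999. NPFFR2 was listed at 0 in parental DMSO, at 2.22 FPKM in parental DAC and at 9.78 in resistant DMSO. For AKR1B1 the nearest were VENTX, a homeobox factor, with r = 0.993, and then EHD2, ZNF439 and 3 unnamed genes. Such values say that a gene was high and low in the same groups and nothing more.

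Recovered reads on genes summed to 28717825 to 33416752 by library, above the 27481000 to 31917000 reads that the FPKM scaling implies. These sums are thus approximate. The 12 myeloid markers all reached 1 FPKM in a library, and their sum was 705 to 774 FPKM in the 8 libraries. Single markers differed within that sum, in both directions. By group mean CD14 was at 1.52 FPKM in parental DMSO and 19.9 in parental DAC, and LYZ at 12.03 and 47.8, whereas CTSG was at 105 and 51.4, AZU1 at 248 and 205, ELANE at 106 and 80.8 and CD33 at 9.83 and 7.86. Between parental and resistant DMSO CTSG was at 105 and 277, ITGAM at 6.40 and 1.80 and CSF1R at 14.2 and 6.78. Of the 5 hepatocyte markers, cells rich in AKR1C transcripts, ALB was at most 0.223 and APOA1 at most 0.763 FPKM by group mean, both in parental DAC, where the list summed to 0.730 to 1.26 FPKM, against 0.0694 to 0.127 in resistant DMSO. The fibroblast markers summed to 0.644 to 0.693 FPKM in parental DMSO, 6.61 to 7.24 in parental DAC and 6.26 to 6.35 in resistant DMSO, mostly COL1A1. The T cell markers summed to at most 1.59 FPKM, in parental DAC, the epithelial markers to at most 1.98, the erythroid markers to at most 2.98 and the B cell and plasma cell markers to at most 10.6. The part of these markers in the results was not tested. In bulk RNA, more cells with a transcript and more transcript per cell cannot be told apart.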

How the data were processed

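RNA-seq of THP-1 cells was analysed in 8 libraries (4 groups of 2). Per the submitters' processing notes, reads were trimmed with cutadapt 1.9.1, aligned to hg38 with HISAT2 2.1.0, handled with SAMtools 1.6 and counted with HTSeq 0.13.5. The authors deposited FPKM multiplied by 1000, which was divided by 1000 here. Handling of strand and of reads that fit several genes is not given in the sources used here.

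Tests used limma 3.58.1 (R 4.3.3) with an intensity trend on log2(FPKM + 1), 1 fit over the 4 groups, for 14899 genes at 1 FPKM or more in at least 2 libraries. Fold changes on this scale understate changes of low genes. P-values were adjusted over all genes (Benjamini-Hochberg). With 2 libraries against 2, an exact permutation test cannot go below p = 0.333, so none was used. Whole reads were recovered from FPKM and GENCODE v44 exon lengths, and 87.1% of values in the first parental DMSO library came within 0.02 of a whole number. For AKR1C2 a length of 6461 bases was solved from the values. Limma-voom used reads from the GENCODE lengths throughout, which for AKR1C2 is 6086 bases. Replicate libraries shared 0 identical values above 0.

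Named genes were all members and, per list and comparison, up to 3 called genes in each direction. Other AKR genes were named by level. NFE2L2, KEAP1, SORD and the called neighbours of the 2 clusters lie outside this rule and were chosen after their values were seen. One gene that the rule on similar patterns would name is not reported here. The fit was checked on simulated data. The members and lists were chosen with earlier results of these data known. The 1264 repeat families were not used. Alternatives are given in the closing section.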

Additional observations from a re-analysis of the deposited data

Results flagged for a closer look

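The effect of DAC differed between resistant and parental cells for AKR1C3 and AKR1A1, by a limma test of the difference itself (unadjusted p of at most 0.01, with no demand on size). AKR1C2 passed the same threshold but is a description, since the DMSO libraries in the difference chose it. Such differences were common, as 7350 of all 14899 genes tested had a limma adjusted p under 0.05 for this comparison. The difference, resistant minus parental on the log2(FPKM + 1) scale, was -1.87 for AKR1C3, which was 5.12 times as high with DAC in parental cells and 0.923 times as high in resistant cells. It was -0.85 for AKR1C2, with ratios of 2.52 and 0.870, and -0.78 for AKR1A1, with ratios of 1.44 and 0.811. In both parental DAC libraries each of these genes was above both parental DMSO libraries, and in both resistant DAC libraries each was below both resistant DMSO libraries. With 2 libraries against 2 this separation is a description, and the share of all genes that separate so was not counted. No group was large enough to look for a single outlying library.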

How the results depend on the processing

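Over 19 alternatives the count of called members with DAC in resistant cells was 0 in each. Between resistant and parental cells under DAC it was 3, except 4 with a pseudocount of 0.1, TPM or limma-voom on recovered reads, AKR1C1 being added. The fit of only the libraries compared cannot give the difference between the DAC effects. With DAC in parental cells it went from 1 to 2 with a pseudocount of 0.1 and to 2 with limma-voom, AKR1C2 being added. For the difference between the DAC effects it went from 1 to 2 with a pseudocount of 0.1, to 2 with TPM and to 3 with limma-voom, AKR1C2 being added in each and AKR1C1 with limma-voom. These added counts are a description, since AKR1C2 was chosen on the DMSO libraries and AKR1C1 entered the tests only through resistant libraries. Leaving out any 1 library changed no count of members. The AKR1B1 difference between the DAC effects, 0.00, took the other sign at -0.0042 with a pseudocount of 0.1 and -0.00038 with limma-voom, and ranged from -0.12 to 0.12 with 1 library left out. The AKR1C2 difference in DMSO ranged from 5.49 to 6.93 (5.54 to 5.58 with 1 library left out) and that under DAC from 4.71 to 5.42 (4.61 to 4.81). Listed genes called with DAC in parental cells went from 12 to 22 with a pseudocount of 0.1, 19 with TPM and 22 with limma-voom. Those for the difference between the DAC effects went from 14 to 9 where a mean of at least 5 FPKM was required. Those under DAC went from 16 to 26 with a pseudocount of 0.1, 25 with TPM, 29 with limma-voom and 8 with a mean of at least 5 FPKM, since fewer genes are then tested. For the other counts the cause was not tested. Same-numbered replicates did not deviate together (correlations of -0.022 to 0.020), and with a replicate block the called members remained 1, 0, 1 and 3 in number and the listed genes 12, 0, 14 and 16.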
